A study of Mus musculus with 3 samples.

Results

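The Toll-like receptors other than Tlr4, with the chaperone that carries several of them, were followed in mouse bone marrow-derived dendritic cells (BMDCs) given the Tlr4 ligand lipopolysaccharide (LPS). They were the genes Tlr1, Tlr2, Tlr3, Tlr5, Tlr6, Tlr7, Tlr8, Tlr9, Tlr13 and Unc93b1. They were taken by name, and every probe set that the platform annotation gave to 1 of these genes alone was used. This gave 13 probe sets for the 10 genes, of 34945 probe sets for 18193 genes that the annotation names singly on the Affymetrix Mouse 430 2.0 array. Tlr7 had 3 probe sets, Tlr3 had 2 and each other gene had 1.

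The cells of all groups were grown from mouse bone marrow for 10 days with 10 ng/ml of the growth factor GM-CSF. The groups were cells given 10 ng/ml LPS together with 100 µM 8-bromo-cAMP (8-Br-cAMP, which the labels also call cAMP) for 3 h, cells given 10 ng/ml LPS alone for 3 h, and unstimulated cells, for which the labels give no stimulation time. 8-Br-cAMP is a cell-permeable analogue of cyclic AMP, the second messenger made downstream of many G protein-coupled receptors. Each group had 1 array, so no difference has a replicate check, no test was possible, and the precision is limited by how few arrays there are. The labels used here give neither the strain, sex nor number of animals, nor a sort of the cells, and no array of 8-Br-cAMP without LPS was analysed here.

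Toll-like receptors recognise microbial molecules through a leucine-rich ectodomain and signal through a cytoplasmic TIR domain to the adaptors Myd88 or Ticam1, and from there to the NF-kappaB and interferon regulatory factors. The receptors of the cell surface bind bacterial lipoproteins and flagellin. The receptors of endosomes bind nucleic acids, and they reach that compartment with Unc93b1, a membrane protein that leaves the endoplasmic reticulum with them, and are then cut by proteases. Dendritic cells use both sets to detect infection and to begin cytokine production and antigen presentation.

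The promoters of the 3 genes that were at least 2-fold higher with LPS are printed first, because the comparison of LPS with unstimulated cells turns on these genes. Sequences are from RefSeq, build GRCm38.p6, each from 250 bases before to 50 bases after a transcription start, and all 4 lie on the minus strand and are written 5′ to 3′ along the gene. Tlr2 is at chr3:83841559-83841858 and Tlr3 at chr8:45410331-45410630, and the 2 windows of Tlr1 are at chr5:64933509-64933808 and chr5:64932650-64932949. Capitals mark matches to the kappaB consensus in Tlr2 and Tlr3 and to the GAS motif in the second window of Tlr1.
Tlr2: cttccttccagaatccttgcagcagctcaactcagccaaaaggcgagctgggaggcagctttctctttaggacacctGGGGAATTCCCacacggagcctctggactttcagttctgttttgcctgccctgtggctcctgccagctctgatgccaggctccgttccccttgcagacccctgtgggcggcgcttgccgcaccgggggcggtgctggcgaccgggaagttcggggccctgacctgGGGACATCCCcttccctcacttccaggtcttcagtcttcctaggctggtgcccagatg
Tlr3: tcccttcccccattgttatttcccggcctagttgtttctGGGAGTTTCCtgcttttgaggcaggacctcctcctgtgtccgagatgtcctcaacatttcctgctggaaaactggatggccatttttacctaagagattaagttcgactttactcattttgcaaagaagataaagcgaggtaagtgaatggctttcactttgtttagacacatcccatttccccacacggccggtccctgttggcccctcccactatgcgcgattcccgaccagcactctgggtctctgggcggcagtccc
Tlr1, first window: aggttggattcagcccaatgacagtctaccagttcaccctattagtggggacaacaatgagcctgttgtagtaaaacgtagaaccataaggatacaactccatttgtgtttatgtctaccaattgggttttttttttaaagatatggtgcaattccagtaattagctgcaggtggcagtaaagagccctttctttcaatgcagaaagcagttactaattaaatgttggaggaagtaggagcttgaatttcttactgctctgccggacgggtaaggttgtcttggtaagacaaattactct
Tlr1, second window: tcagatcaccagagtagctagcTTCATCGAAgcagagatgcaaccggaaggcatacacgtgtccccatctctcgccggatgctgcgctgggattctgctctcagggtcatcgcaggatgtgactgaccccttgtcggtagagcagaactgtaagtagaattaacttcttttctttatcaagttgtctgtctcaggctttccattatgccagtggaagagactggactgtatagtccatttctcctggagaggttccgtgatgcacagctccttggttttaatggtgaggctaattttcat

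Motifs were searched on both strands. They were the kappaB consensus, the ISRE core GAAANNGAAA, the GAS motif TTCNNNGAA, the cyclic AMP response element TGACGTCA and its shorter form TGACG, which the full element contains. Over all 32851 RefSeq windows of this length, 4.51% held the kappaB consensus, 3.44% the ISRE core, 8.30% the GAS motif, 1.79% the full cyclic AMP element and 20.8% its shorter form. The Tlr2 window held 3 kappaB matches, 2 of them overlapping between -173 and -163 and the other between -8 and 2, counted from the start as 1 with no base 0. The Tlr3 window held 1 kappaB match, between -211 and -202. In Tlr1 the first window held none of the 5 motifs and the second held 1 GAS match, between -228 and -220. Windows were matched for 8 of the 10 genes, 10 windows in all, with Tlr7 and Unc93b1 having no entry in the table used. Among the others, the first Tlr6 window held 2 overlapping ISRE matches between -116 and -101, and the second held 2 GAS matches and 1 short cyclic AMP match. Tlr13 held 1 short cyclic AMP match, Tlr8 held 1 GAS match, and the windows of Tlr5 and Tlr9 held none. A match describes the letters only and is not evidence of binding.

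Deposited signals were brought to a common trimmed mean, and the scaled signal is the unit of every level below. A single floor at 32.5, the highest of the 3 array medians, was applied. Where 1 of the arrays compared lay under it, the printed difference is a lower bound and is given as "at least". It bounds the scaled signals of these arrays alone, and another scaling or the scatter of a probe set can give less. The array with LPS and 8-Br-cAMP was the dimmest as deposited, with a median of 19.8, against 33.4 with LPS and 42.6 unstimulated, and after scaling the number of probe sets over the floor, of 45037, was 22419 with LPS and 8-Br-cAMP, 21932 with LPS and 22518 unstimulated. The scatter of 1 probe set's log2 difference, from genes with a second probe set, was 0.45 for LPS against unstimulated, 0.48 for LPS with 8-Br-cAMP against LPS and 0.56 for LPS with 8-Br-cAMP against unstimulated. It describes probe sets on the same arrays, not the spread between cultures. Sex-linked genes set 1 array apart. The signal of Xist, the RNA of the inactive X chromosome, was 1716 with LPS and 8-Br-cAMP, 8.08 with LPS and 32.3 unstimulated, and the Y-linked Eif2s3y had 1.24, 272 and 352 in the same order. In every comparison with the array of LPS and 8-Br-cAMP a difference with the compound and a difference between the animals or cultures cannot be told apart. All 8 dendritic cell markers were above the floor on every array, with a summed signal of 29694 with LPS and 8-Br-cAMP, 22755 with LPS and 18037 unstimulated. Cd74 and Ccr7 carried most of the higher sum with LPS and 8-Br-cAMP than with LPS, the list's median log2 difference there was 0.11, and Itgax at -0.21, Zbtb46 at -0.35 and Dpp4 at -0.40 lay the other way. In a mixed culture, fewer cells of a type and less RNA per cell cannot be told apart.

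Of the surface receptors, Tlr2 is the common partner in lipoprotein sensing, joining Tlr1 for triacylated and Tlr6 for diacylated lipoproteins. The Tlr2 probe set 1419132_at gave a scaled signal of 4747 with LPS and 8-Br-cAMP, 4589.5 with LPS and 1308 unstimulated. Both LPS arrays were high and close to each other. Tlr2 was 3.51-fold higher with LPS than unstimulated (log2 1.81) and differed by 0.05 on the log2 scale between LPS with 8-Br-cAMP and LPS alone, within the scatter of 1 probe set. Against unstimulated cells it was 3.63-fold higher with LPS and 8-Br-cAMP.

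The Tlr1 probe set, 1449049_at, was at a scaled signal of 125 with LPS and 8-Br-cAMP, 472 with LPS and 90.7 unstimulated. It was high only on the array of LPS alone. With LPS it was 5.20-fold higher than unstimulated (log2 2.38), and with LPS and 8-Br-cAMP it was 3.76-fold lower than with LPS (log2 -1.91). Its level with LPS and 8-Br-cAMP was 1.38-fold that of unstimulated cells (log2 0.47), which is within the scatter of 1 probe set. Only 193 of 12283 measured genes (1.57%) had a more positive difference with LPS, and 60 of 12572 (0.477%) had a more negative one for LPS with 8-Br-cAMP against LPS. Those 2 differences share the LPS array, so they are not independent of each other.

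Tlr6, the neighbour of Tlr1 on chromosome 5, was at 135 with LPS and 8-Br-cAMP, 109 with LPS and 71.7 unstimulated on probe set 1421352_at. It was lowest in unstimulated cells, by 1.53-fold against LPS (log2 0.61) and by 1.88-fold against LPS with 8-Br-cAMP (log2 0.91), both under 2-fold. Between LPS with 8-Br-cAMP and LPS the log2 difference was 0.30, within the scatter of 1 probe set, so the difference seen for Tlr1 has no counterpart of that size in Tlr6. Tlr5, the flagellin receptor, had 11.4 with LPS and 8-Br-cAMP, 8.86 with LPS and 7.88 unstimulated on 1450242_at. All 3 values lie under the floor, and no fold is given.

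**Figure D1:**
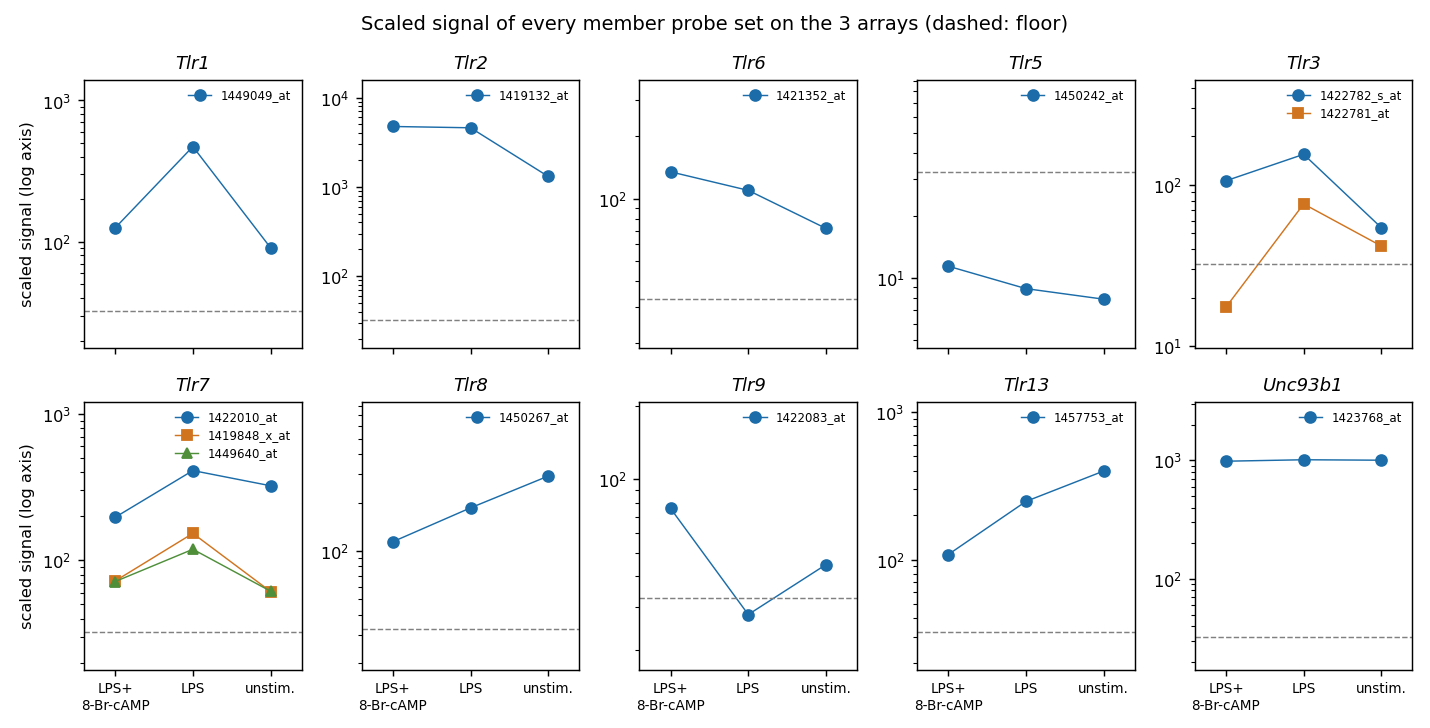
Scaled signal of each probe set of the 10 genes on the 3 arrays, on a log axis, with LPS and 8-Br-cAMP, LPS and unstimulated in that order and 1 point for each array. The dashed line is the floor at 32.5. Tlr1 stands high on the LPS array alone, Tlr2 on both arrays with LPS, Unc93b1 is level, and Tlr5 lies under the floor on all 3.

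Among the endosomal receptors, Tlr3, the receptor for double-stranded RNA that signals through Ticam1, was the 1 of the 5 at least 2-fold higher with LPS when each gene was read from its brightest probe set. Read from the second brightest, Tlr7 passed 2-fold at log2 1.32 and Tlr3 did not at 0.87, and with the floor at the 75th percentile Tlr3 was at log2 0.50. Its brighter probe set, 1422782_s_at, had 106 with LPS and 8-Br-cAMP, 155 with LPS and 54.3 unstimulated. The LPS array was 2.85-fold above unstimulated (log2 1.51), and the array with 8-Br-cAMP lay between them, 1.46-fold below LPS (log2 -0.54). The second, 1422781_at, had 17.5 with LPS and 8-Br-cAMP, 76.2 with LPS and 41.8 unstimulated. Both probe sets had the LPS array highest, but the second was 1.82-fold higher with LPS than unstimulated, under 2-fold, while its signal on the array of LPS and 8-Br-cAMP was at least 2.34-fold below that of LPS alone. Against unstimulated cells they disagreed in direction, with log2 0.97 for the brighter and at least 1.28-fold lower for the second.

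Tlr7, a receptor for single-stranded RNA, had 197 with LPS and 8-Br-cAMP, 410.4 with LPS and 323 unstimulated on its brightest probe set, 1422010_at. The second, 1419848_x_at, had 72.3 with LPS and 8-Br-cAMP, 153 with LPS and 61.3 unstimulated, and the third, 1449640_at, had 71.7, 119 and 61.6 in the same order. On all 3 the LPS array was the highest. With LPS and 8-Br-cAMP the log2 difference from LPS was -1.06, -1.08 and -0.73, past 2-fold on 2 of the 3 probe sets. Against unstimulated cells the LPS array differed by log2 0.34 on the brightest probe set and by 1.32 and 0.95 on the others, so only 1 of the 3 passed 2-fold. Between LPS with 8-Br-cAMP and unstimulated the brightest was at log2 -0.72 and the others at 0.24 and 0.22, so the direction depended on the probe set.

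Tlr8, the neighbour of Tlr7 on the X chromosome and also a receptor for RNA, had 114 with LPS and 8-Br-cAMP, 185 with LPS and 292 unstimulated on 1450267_at. The unstimulated array was the highest. The LPS array was 1.58-fold below it (log2 -0.66), and the array with 8-Br-cAMP was a further 1.62-fold below LPS (log2 -0.70), neither of them past 2-fold. Between LPS with 8-Br-cAMP and unstimulated the difference was 2.56-fold (log2 -1.36).

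Tlr13, which in the mouse recognises bacterial ribosomal RNA and lies on the X chromosome, had the same order of arrays, with 108 with LPS and 8-Br-cAMP, 248 with LPS and 398 unstimulated on 1457753_at. It was 1.61-fold lower with LPS than unstimulated (log2 -0.68) and 2.29-fold lower with LPS and 8-Br-cAMP than with LPS (log2 -1.20). Against unstimulated cells it was 3.68-fold lower with LPS and 8-Br-cAMP (log2 -1.88), and 378 of 12793 measured genes (2.95%) had a more negative difference.

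Tlr9, the receptor for unmethylated CpG DNA, had 76.0 with LPS and 8-Br-cAMP, 27.9 with LPS and 44.7 unstimulated on 1422083_at. The LPS array was under the floor and the others were less than 3 times it. Tlr9 was at least 1.37-fold lower with LPS than unstimulated, and at least 2.34-fold higher with LPS and 8-Br-cAMP than with LPS. Against unstimulated cells the array with 8-Br-cAMP was 1.70-fold higher (log2 0.76). Tlr9 was the only endosomal receptor that was higher with 8-Br-cAMP than with LPS alone.

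Unc93b1, the chaperone of these receptors, had 983 with LPS and 8-Br-cAMP, 1012 with LPS and 1003 unstimulated on 1423768_at. The 3 arrays were level, with log2 differences of 0.01 for LPS against unstimulated, -0.04 for LPS with 8-Br-cAMP against LPS and -0.03 for LPS with 8-Br-cAMP against unstimulated, all well within the scatter of 1 probe set.

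**Figure D2:**
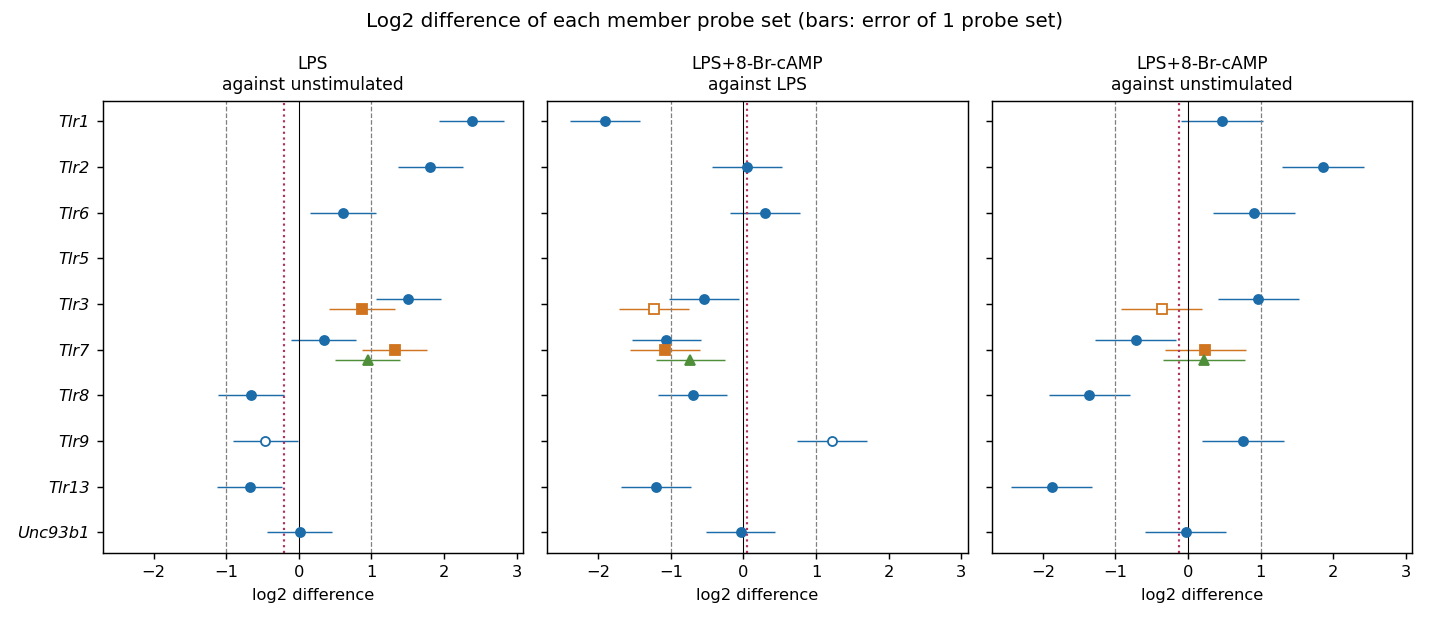
Log2 difference of each probe set of the 10 genes in the 3 comparisons, with dashed lines at 2-fold, a dotted line at the median of all measured genes, bars for the scatter of 1 probe set and open symbols for lower bounds. Symbols differ by probe set, and Tlr5 has none because it is under the floor. Tlr1 lies at 2.38 for LPS against unstimulated and at -1.91 for LPS with 8-Br-cAMP against LPS, and Tlr2 at 1.81 and 0.05.

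Counted over the 9 genes above the floor in a comparison, Tlr1, Tlr2 and Tlr3 were at least 2-fold higher with LPS than unstimulated, 3 of 9, where 6.64% of the 12283 measured genes were. None of the 9 was at least 2-fold lower, where 13.0% of measured genes were. The median log2 difference of the 9 was 0.34, against -0.21 over all measured genes, so the whole comparison is shifted downward. Taken from that median, Tlr1 was at 2.59, Tlr2 at 2.02, Tlr3 at 1.72, Tlr8 at -0.45 and Tlr13 at -0.48. By role, the 3 measured surface receptors had a median of 1.81 and all lay above 0, though Tlr6 was at 0.01 with the floor at the 75th percentile. The 5 endosomal receptors had a median of -0.46, with 2 above 0 and 3 below. That median is the value of Tlr9, whose LPS signal was under the floor, so it depends on the floor. Tlr9 was at -0.68 with the floor at the 25th percentile. Tlr7 entered at 0.34, while its other probe sets were at 1.32 and 0.95.

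For LPS with 8-Br-cAMP against LPS, 3 of the 9 were at least 2-fold lower, Tlr1, Tlr7 and Tlr13, where 5.81% of 12572 measured genes were. Tlr9 was the 1 gene at least 2-fold higher, where 6.49% were. The median was -0.54, against 0.05 over all measured genes, with 6 of the 9 below 0. The endosomal receptors had a median of -0.70, with 4 of 5 below 0. Tlr7 at log2 -1.06 lay closest to the 2-fold line among the 3 lower genes.

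For LPS with 8-Br-cAMP against unstimulated, Tlr2 was the 1 gene of 9 at least 2-fold higher, where 9.36% of 12793 measured genes were, and Tlr8 and Tlr13 were the 2 at least 2-fold lower, where 15.8% were. Both shares are near that background. Tlr3 at log2 0.97 lay just inside the 2-fold line. The median of the 9 was 0.47, against -0.12 over all measured genes. That median was -0.03 with the floor at the 75th percentile or with only probe sets ending in _at, so its sign is not settled.

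Under other scalings of the arrays each member stayed within the scatter of 1 probe set of its main value, except without any scaling. A shift of that size could still carry a gene across 2-fold. Over trimmed-mean, median, quantile, cyclic loess and hybridisation-spike scaling, Tlr1 ranged between log2 2.10 and 2.56 for LPS against unstimulated and between -1.96 and -1.73 for LPS with 8-Br-cAMP against LPS. Tlr2 ranged between 1.53 and 1.88, and between -0.19 and 0.12, so the sign of its second difference depended on the scaling. Tlr7 ranged between -1.11 and -0.93 with 8-Br-cAMP against LPS and was past 2-fold in 3 of the 5 scalings, and Tlr13 ranged between -1.25 and -1.08. Unc93b1 changed sign as well, between -0.27 and 0.08 for LPS against unstimulated and between -0.11 and 0.03 for LPS with 8-Br-cAMP against LPS. For LPS with 8-Br-cAMP against unstimulated, Tlr3 ranged between 0.75 and 1.28 and Tlr6 between 0.70 and 1.23. Each of these was past 2-fold in 2 of the 5 scalings.

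**Figure D3:**
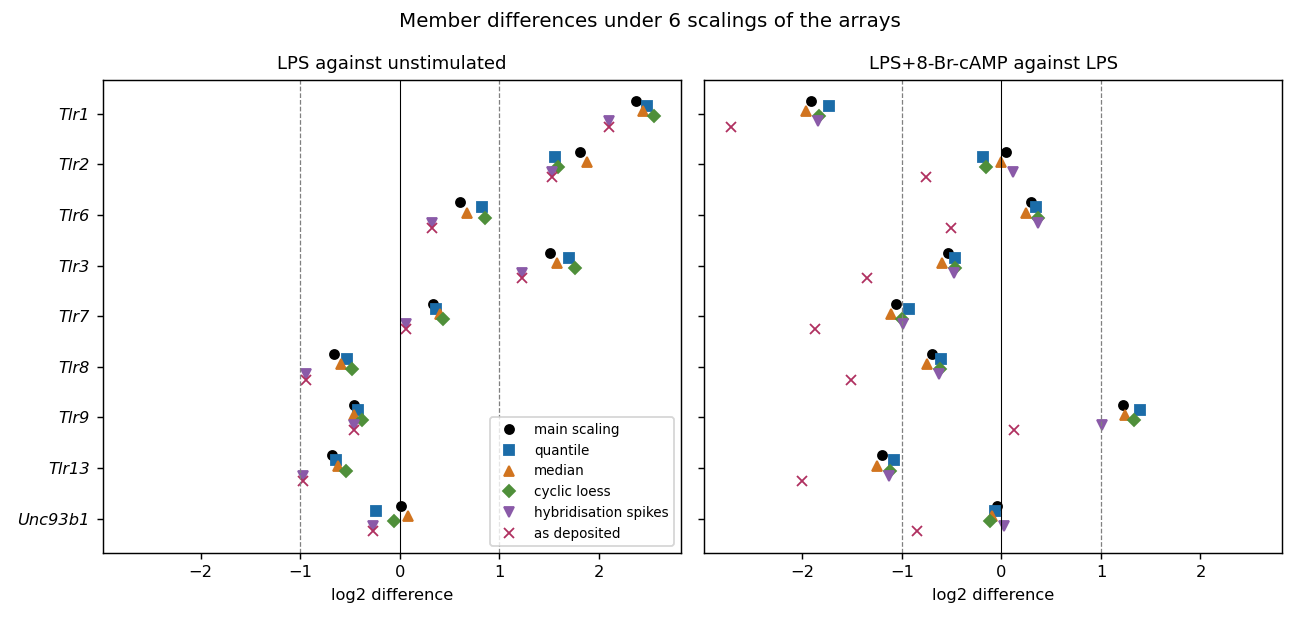
Log2 differences of the 9 measured genes under 5 scalings of the arrays, with crosses for the signals as deposited and dashed lines at 2-fold. Tlr1 stays past 2-fold in both comparisons under all 5 scalings, and the marks of Unc93b1 lie on both sides of 0.

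Genes whose pattern was most like that of Tlr1 were sought among the 9078 genes above the floor on all 3 arrays, by the distance in the 2 log2 differences, LPS against unstimulated and LPS with 8-Br-cAMP against LPS. Read from the brightest probe sets, Tlr1 was the only member past 2-fold in both, while the second Tlr7 probe set also passed both, at log2 1.32 and -1.08. The nearest was Cpeb4, at 2.33 and -1.75, a distance of 0.169. Cst7 followed at 2.58 and -1.92 with a distance of 0.203, and Daam1 at 2.53 and -1.71 with 0.255. Cited2, at 2.11 and -1.95, was 0.271 away and Nrp2, at 2.18 and -1.51, was 0.443 away. Within a distance of 0.5 there were 8 genes. The likeness rests on 3 arrays.

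The genes that fold, move, cleave, assist and relay these receptors were taken from lists of pathway genes, whose 2-fold counts stand beside the 6.64% higher and 13.0% lower of all measured genes for LPS against unstimulated and the 6.49% higher and 5.81% lower for LPS with 8-Br-cAMP against LPS. Among the other receptors of the family, 1 of 3 measured was at least 2-fold higher with LPS and 0 lower. It was Cd180, a receptor without a TIR domain that is related to Tlr4 and limits its signalling, with 62.6 with LPS and 8-Br-cAMP, 135 with LPS and 36.5 unstimulated. Like Tlr1 it was higher with LPS (log2 1.89) and lower with LPS and 8-Br-cAMP than with LPS (log2 -1.11). Tlr4 itself, the receptor for LPS, was at log2 -0.73 and 0.13 on its brighter probe set and at -1.47 and -0.40 on its second, in the same order of comparisons. Tlr12 was at least 1.56-fold higher with LPS and at log2 0.19 with 8-Br-cAMP against LPS.

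Of the folding, trafficking and cleavage genes, 1 of 15 measured was at least 2-fold higher with LPS than unstimulated and 2 were lower, with a median of 0.00. Lrrc59, which helps load nucleic acid receptors for transport, was at 1478 with LPS and 8-Br-cAMP, 1364 with LPS and 635 unstimulated. Cnpy3, a chaperone of several Toll-like receptors, was 6.10-fold lower with LPS than unstimulated (log2 -2.61), and Rab7b, a small GTPase of endosomal traffic, 6.70-fold lower (log2 -2.74). With 8-Br-cAMP, 0 of 15 were higher and 2 lower than with LPS. They were Hsp90b1, the endoplasmic reticulum chaperone that folds most of the family, at 789 with LPS and 8-Br-cAMP, 1592 with LPS and 1273 unstimulated, and Ctsk, a protease of the endosome, at log2 -1.03. The second Hsp90b1 probe set was at log2 -0.76 in that comparison.

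Coreceptors and ligand carriers had 2 of 12 measured at least 2-fold higher with LPS than unstimulated and 1 lower, with a median of -0.45. Cd14, which hands LPS and other ligands to the receptors, was at 20763 with LPS and 8-Br-cAMP, 10940.3 with LPS and 4222 unstimulated. Rnaset2a, an endosomal ribonuclease that makes fragments for Tlr7 and Tlr8, was at least 4.68-fold higher with LPS than unstimulated, while Pld4, an endosomal exonuclease, was 2.22-fold lower. With 8-Br-cAMP, Mrc1, a mannose receptor, was the 1 of 13 at least 2-fold higher than with LPS (log2 1.01), 0 were lower, and the median was 0.39. Cd36, a scavenger receptor that helps Tlr2 with Tlr6, was at log2 0.95 on its brightest probe set and at 1.40, past 2-fold, and 0.47 on its others.

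Adaptors and kinases had 6 of 17 measured at least 2-fold higher with LPS and 0 lower, with a median of 0.56. Myd88, the adaptor that all members but Tlr3 and Unc93b1 use, was at 1353 with LPS and 8-Br-cAMP, 1362 with LPS and 346 unstimulated, and was level between the LPS arrays (log2 -0.01). Ikbke, a kinase of interferon factors, was at log2 1.98 and -0.76, and Map3k8, which acts on ERK, at 1.81 for LPS against unstimulated. With 8-Br-cAMP, Irak1, a kinase that acts after Myd88, was the 1 of 16 at least 2-fold lower than with LPS at log2 -1.21, though its other probe sets gave -0.59, 0.28 and 0.27. The list's median in that comparison was -0.09, and Tirap, the adaptor that brings Myd88 to surface receptors, was the 1 gene higher at log2 1.42, with its second probe set at -0.03 and close to or under the floor on every array.

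Transcription factors had 6 of 11 measured at least 2-fold higher with LPS and 0 lower, with a median of 1.02. Irf7, a factor for type I interferons, was at 1500.5 with LPS and 8-Br-cAMP, 1303 with LPS and 81.6 unstimulated. Irf1, an interferon factor, was 8.35-fold higher with LPS than unstimulated and was 2.15-fold lower with LPS and 8-Br-cAMP than with LPS alone (log2 -1.10). With 8-Br-cAMP, 3 of 11 were lower and 1 was higher, Rel, an NF-kappaB subunit, at log2 1.07, with a list median of -0.13. The other two lower ones were Spi1, a factor of myeloid cells, at log2 -1.49, and Irf8, a factor of dendritic cells and monocytes, at -1.30.

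Brakes on Toll-like receptor signalling had 8 of 14 measured at least 2-fold higher with LPS, 2 lower and a median of 1.55. The lower ones, Sigirr, an inhibitory receptor at least 2.34-fold lower, and Rnf216, a ubiquitin ligase at log2 -1.35, were named after their values were seen. Socs1, an inhibitor of cytokine signalling, was at least 20.3-fold higher with LPS than unstimulated, and Tnfaip3, a ubiquitin-editing enzyme, was at log2 3.74. Peli1, a ubiquitin ligase of the pathway, was at 3.58. With 8-Br-cAMP, 0 of 13 passed 2-fold in either direction and the median was -0.04. Tnfaip3 was at log2 0.77 and Peli1 at -0.76 there, and 2 of the other Peli1 probe sets were at -0.96 and -1.98.

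**Figure D4:**
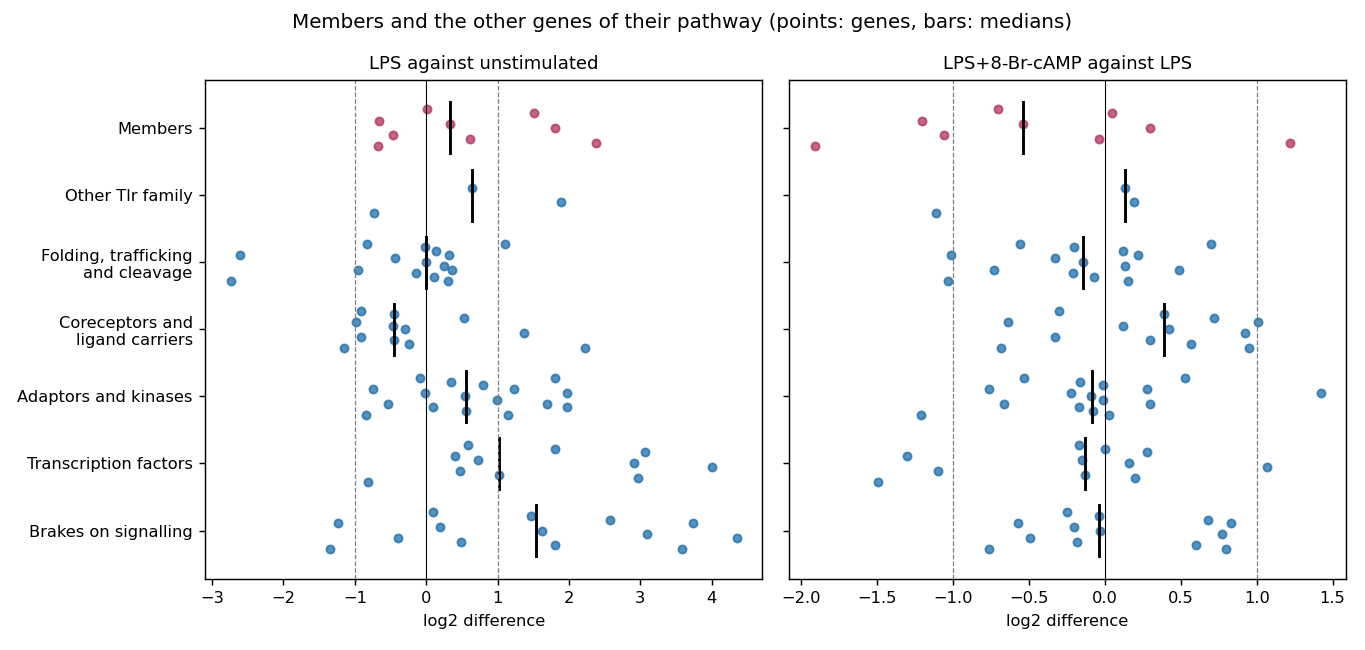
Log2 difference of each measured gene in the pathway lists for LPS against unstimulated and for LPS with 8-Br-cAMP against LPS, with the 9 measured members at the top, 1 point for each gene, bars at the medians and dashed lines at 2-fold. Brakes and transcription factors lie furthest above 0 with LPS, with medians of 1.55 and 1.02.

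Markers of other cells also differed between the arrays. For LPS with 8-Br-cAMP against LPS, their counts stand beside the 5.81% of all measured genes that were at least 2-fold lower. Tlr13 and Tlr8 are known from monocytes and macrophages. The 6 macrophage and monocyte markers on the array had a median of log2 -0.77 in that comparison, with 1 of 6 at least 2-fold lower. Csf1r at 0.14 and Fcgr1 at 0.43 lay the other way. For LPS against unstimulated the median of the 6 was 0.00, where Tlr8 was at -0.66 and Tlr13 at -0.68. The markers behind that median were not level. Ccr2 was at -2.88, Fcgr1 at 1.49 and Mertk at 0.94, and the others lay between -0.08 and 0.02. Of the 6, 1 was at least 2-fold higher and 1 lower, where 6.64% and 13.0% of measured genes were. The summed signal of the 6 was 14153 with LPS and 8-Br-cAMP, 16387 with LPS and 15959 unstimulated, with all 6 above the floor on every array. The granulocyte markers differed more, with 7 of 10 measured at least 2-fold lower with 8-Br-cAMP than with LPS, a median of -1.54, and a sum of 19928 with LPS and 8-Br-cAMP, 40929 with LPS and 37035 unstimulated. Of 7 measured eosinophil and mast cell markers 4 were at least 2-fold lower, with a median of -1.05 and a sum of 733 with LPS and 8-Br-cAMP, 1804 with LPS and 1775 unstimulated. Prg2, at 387, 1189 and 1120 in the same order, carried most of each sum. Kit at log2 0.68 and Siglecf at 0.06 lay the other way.

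Tlr7 and Tlr9 are known from B cells and plasmacytoid dendritic cells. The 8 B cell and plasma cell markers on the array summed to 312 with LPS and 8-Br-cAMP, 3132 with LPS and 5127 unstimulated. With 8-Br-cAMP, 3 of 8 were at least 2-fold lower than with LPS, where 5.81% of measured genes were. They were Ighm at log2 -4.83, Igha at -3.95 and Jchain, at least 16.2-fold lower, and they carried most of the lower sum. The list's median there was -0.69, and Cd79b at 0.10 and Pax5, at least 1.59-fold higher, lay the other way. Of 8 plasmacytoid markers 5 were above the floor, with a sum of 1407 with LPS and 8-Br-cAMP, 1552 with LPS and 855 unstimulated. Bst2 at log2 1.31 and Tcf4 at 1.54 carried the higher sum with LPS than unstimulated, while Ly6d at -0.69, Spib at -0.49 and Klk1 at -0.35 lay the other way and the list's median was -0.35. The defining marker Siglech was under the floor on all 3 arrays. In the cDC1 list, where Tlr3 is known to be abundant, 4 of 5 were above the floor, with a sum of 571 with LPS and 8-Br-cAMP, 544 with LPS and 724 unstimulated, and its defining marker Xcr1 was under the floor on all 3 arrays. The part of these cells in the members' differences was not tested.

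Tlr7, Tlr8 and Tlr13 lie on the X chromosome, where Xist set the array with 8-Br-cAMP apart. Leaving out Xist, the 374 measured X-linked genes had a median log2 difference of -0.03 for LPS with 8-Br-cAMP against LPS, against 0.05 for 12116 autosomal genes. At least 2-fold lower were 6.42% of X-linked and 5.77% of autosomal genes, and below 0 were 53.5% of X-linked and 46.6% of autosomal genes. The X-linked members lay below that X-linked median, at -1.06, -0.70 and -1.20. For LPS with 8-Br-cAMP against unstimulated, the X-linked median was -0.16 over 368 genes and the autosomal one -0.12 over 12344.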

How the data were processed

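RNA of 3 BMDC cultures was measured on Affymetrix Mouse 430 2.0 arrays, 1 per condition, as biotinylated cRNA per the labels' protocols. The deposited values were linear signal intensities for each probe set, produced by MAS5 (per the submitters' processing notes) with a version and settings not given in the sources used here. Of 45101 probe sets, 64 controls were left out, 34945 had 1 gene in GEO's platform annotation, 932 had several and 9160 were not listed. Of the 34945, 99.4% matched the RefSeq gene table and 0 symbols changed.

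Each array's mean, trimmed by 2% at each end, was brought to the average of the 3. The factors were 1.63 with LPS and 8-Br-cAMP, 0.929 with LPS and 0.763 unstimulated. Signals under the floor of 32.5 (log2 5.02) were set to it before log2 was taken. The probe set brightest on average stood for its gene, which counted as measured if either array compared exceeded the floor. Genes were counted past 2-fold. The scatter of 1 probe set was the SD of the difference between the log2 differences of a gene's 2 brightest probe sets, divided by the square root of 2, over 4029, 3799 and 3825 genes for the 3 comparisons.

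Since each condition had 1 array, there is no test and no p-value. The members and lists were chosen with earlier results of these data known. Named genes were all members, the 4 measured genes of each list with the largest absolute differences in each of LPS against unstimulated and LPS with 8-Br-cAMP against LPS, from which examples are given, and the 5 genes nearest to Tlr1. Markers and sex-linked genes are named as checks. Alternatives were other scalings, floors, thresholds, probe set choices and a pseudocount. Steps were tested on simulated data. Tools were Python 3.11.15 with pandas 2.3.3 and numpy 2.4.6, and R 4.3.3 with limma 3.58.1 for cyclic loess normalization.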

Additional observations from a re-analysis of the deposited data

How the results depend on the processing

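With 1 array per condition, every value rests on 1 culture. No paired analysis was possible because each condition had 1 array. Of the counts and medians recomputed under the alternatives, 127 stayed close and 17 moved. A count was close if equal to the main one or within 1.5-fold of it. A median or difference was close if it moved by less than the scatter of 1 probe set, even where its sign changed. Of the differences of single members, 261 stayed close and 32 moved. None past 2-fold reversed. Members with 1 probe set keep their main value under every probe set choice, so part of both tallies was close by construction. For LPS against unstimulated, spike scaling and no scaling nearly coincide, since the mean spike signals were 1422 and 1423. The tallies therefore do not count independent checks. Without scaling, the median of the 9 members was -1.35 for LPS with 8-Br-cAMP against LPS and -0.63 against unstimulated, with 5 and 4 members at least 2-fold lower and 0 higher in both. All measured genes were shifted too, with medians of -0.65 and -1.08. Of them, 2882 of 10302 and 6125 of 11426 were at least 2-fold lower, and 93 and 286 higher. Tlr9 was then higher by at least 0.13 in log2 with 8-Br-cAMP than with LPS, against at least 1.22 after scaling. Both are bounds set by the floor, which was 42.6 without scaling, and the array with 8-Br-cAMP was dimmer as deposited. With the floor at the 75th percentile, 5 members were above it unstimulated, against 9. With that floor 0 were higher with 8-Br-cAMP than with LPS, where 302 of 6425 measured genes were. With a pseudocount, 0 were higher and 1 lower there, where 621 and 534 of 12572 measured genes were. Under quantile and cyclic loess scaling, 3 members were higher with LPS and 8-Br-cAMP than unstimulated, Tlr3 and Tlr6 joining Tlr2. Over all measured genes, 1452 of 12818 and 1433 of 12723 were. At 1.5-fold, 4 members were higher with LPS and 8-Br-cAMP than unstimulated, where 2361 of 12793 measured genes were. At that threshold 2 were lower with LPS than unstimulated, where 3516 of 12283 were. At 3-fold, 0 were higher and 1 lower with 8-Br-cAMP than with LPS, where 182 and 154 of 12572 were. Against unstimulated 1 was lower, where 688 of 12793 were.

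Over all genes, LPS against unstimulated gave 815 higher and 1597 lower, but 960 and 1236 with quantile, 979 and 1162 with cyclic loess and 561 and 2585 with spike scaling, where the median of all genes was -0.47, and 555 and 2618 unscaled. LPS with 8-Br-cAMP against LPS gave 816 and 730, but 93 and 2882 unscaled. LPS with 8-Br-cAMP against unstimulated gave 1198 and 2018, but 1452 and 1637 with quantile, 1433 and 1515 with cyclic loess, 836 and 2678 with spikes and 286 and 6125 unscaled. The cause of these shifts was not tested. By construction, other floors and thresholds changed the counts. In the same order of comparisons they were 1839 and 2640, 2326 and 1873, and 2691 and 3099 with the floor at the 25th percentile, and 584 and 596, 302 and 304, and 721 and 839 at the 75th. They were 1710 and 3516, 2271 and 1988, and 2361 and 3774 at 1.5-fold, and 406 and 425, 182 and 154, and 506 and 688 at 3-fold. With the mean over a gene's probe sets they were 650 and 994, 472 and 432, and 852 and 1286, and a pseudocount gave 1026 lower with LPS than unstimulated.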
